A study of Homo sapiens with 12 samples.

Results

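Reads of 10 genes of class I antigen presentation and of the immunoproteasome were followed in RNA pulled down with J2, an antibody that binds double-stranded RNA. The genes were PSMB8, PSMB9, PSME1, PSME2, TAP1, NLRC5, HLA-B, HLA-E, HLA-F and B2M, 10 of the 58780 genes in the GENCODE annotation of hg38. They were taken by name, and each row of the deposited count table (a row is 1 stranded stretch of the genome) that lay in a gene's annotated body on the gene's strand was assigned to it, which gave 369 rows, 297 of them with reads. Most rows lie between exons, so 2 sums were made per gene. The full sum holds all rows that lie in no other gene of that strand, and the exon-free sum leaves out rows that share a base with an exon.

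The cells were NCI-H1944, an established human lung adenocarcinoma line, in 2 genotypes. The labels call IFNAR1sg an IFNAR1 knockout made with a guide RNA, and SCR wild type. IFNAR1 encodes one chain of the type I interferon receptor. Within each genotype 1 group received MPS1i (BAY-1217389, 100 nM for 48 h, then washout and 24 h of culture), 1 group received IFNb (recombinant interferon beta, 5 ng/ml, in the last 24 h) and 1 group received DMSO. MPS1 is a kinase of the spindle checkpoint, and the series set out to identify RNA that becomes double-stranded after its brief inhibition and needs type I interferon to do so. Each of the 6 groups had 2 libraries, 12 in all, and the labels do not say whether the 2 came from separate cultures or whether the knockout was 1 clone. No input RNA was used here, and a change may therefore reflect transcript amount, double-stranded share or both. In such bulk samples fewer cells carrying a transcript and less of it per cell cannot be told apart either.

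As background, peptides shown to T cells on class I molecules come from the proteasome. In cells exposed to interferon, the catalytic subunits PSMB8 and PSMB9 replace constitutive ones to form the immunoproteasome, and PSME1 and PSME2 together form the ring of the PA28 activator. TAP1 is one subunit of the transporter that carries peptides into the endoplasmic reticulum. There they bind a heavy chain (HLA-B, or the non-classical HLA-E and HLA-F) paired with the light chain B2M. NLRC5 is the transactivator that switches class I genes on. Type I interferon acts on many such genes through interferon-stimulated response elements (ISREs).

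Promoter sequence from RefSeq (build GRCh38.p14, 250 bases before to 50 bases after a start) was searched for the ISRE core GAAANNGAAA on both strands. NLRC5 and HLA-E were not among the sequences used. The other 8 members had 10 such windows, and 6 windows, each of another member, held the core, against 3.57% of all 35116 windows of the same length. The matches are shown because they mark where the letters of an interferon element lie in these genes. Each is printed 5′ to 3′ on the gene's strand with the match in capitals, and a match on the other strand reads TTTCNNTTTC.
PSMB8: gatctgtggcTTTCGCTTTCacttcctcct
PSME1: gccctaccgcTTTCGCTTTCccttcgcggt
PSME2: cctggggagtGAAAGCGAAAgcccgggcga
TAP1: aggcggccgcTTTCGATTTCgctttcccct
HLA-F: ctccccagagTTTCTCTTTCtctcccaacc
B2M: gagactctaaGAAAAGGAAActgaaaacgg
The stretch of PSMB8 lay at chr6:32844032-32844061 on the minus strand and that of PSME1 at chr14:24136189-24136218 on the plus strand, and the letters TTTCGCTTTC were the same in both. That of PSME2 lay at chr14:24146619-24146648 on the minus strand and that of TAP1 at chr6:32853819-32853848 on the minus strand. Those of HLA-F and B2M lay on the plus strand at chr6:29723268-29723297 and chr15:44711363-44711392. In TAP1 and in B2M a second match overlapped the first. PSMB9 and HLA-B had no match in their windows. The GAS core TTCNNNGAA was in 2 of the 10 windows (7.66% of all), the NF-kB core GGGNNTTTCC in 2 (1.91% of all) and the box CCAAT in 5 (34.6% of all). A match is a description of letters and not of a factor bound there.

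Library totals ranged from 3739443 to 7430687 reads. The 2 SCR IFNb libraries stood apart: they had reads in 295367 and 296843 rows, against 566704 to 935974 in the other 10, and 49.6% and 47.9% of their reads lay in rows sharing an exon base, against 33.2% to 39.7%. Each result for IFNb in SCR rests on them; fitted without both, the counts of called members for MPS1i, for IFNAR1sg minus SCR and for the MPS1i interaction were as with them, and IFNb in IFNAR1sg lost 1 exon-free call, that of NLRC5. The 1 testable row of IFNAR1 had 15 and 13 reads in IFNAR1sg DMSO, against 69 and 60 in SCR DMSO (log2 change -2.12 ± 0.37 SE, adjusted p = 0.0018). Of 10 lung epithelial markers 8 had reads, mostly KRT8, and KRT19 and NKX2-1 were at 0. Their summed level in CPM (counts per 1000000 reads, with library sizes scaled by TMM factors) was 2053 to 2394 in IFNAR1sg MPS1i, 2668 to 3206 in IFNAR1sg IFNb and 1960 to 2001 in IFNAR1sg DMSO. In SCR it was 2922 to 3248 CPM with MPS1i, 3939 to 4312 with IFNb and 1728 to 1848 with DMSO. Of 12 immune markers 8 had reads, and CD3D, MS4A1 and NKG7 were among those at 0. The summed immune level was 6.44 to 11.4 CPM in IFNAR1sg MPS1i, 2.36 to 3.36 in IFNAR1sg IFNb and 1.82 to 3.0 in IFNAR1sg DMSO. In SCR it was 11.9 to 12.7 CPM with MPS1i, 10.7 to 12.6 with IFNb and 2.69 to 2.86 with DMSO. Of 10 fibroblast markers 8 had reads, with COL1A2 and PDGFRA at 0, and their sum was 17.0 to 20.1 CPM in IFNAR1sg MPS1i, 4.27 to 5.84 in IFNAR1sg IFNb and 3.26 to 3.28 in IFNAR1sg DMSO. In SCR that sum was 22.2 to 22.9 CPM with MPS1i, 6.15 to 8.22 with IFNb and 2.22 to 3.27 with DMSO. All 3 sums were thus higher with MPS1i in both genotypes and with IFNb in SCR, as most tested members were. Their part in the results was not tested. Some epithelial markers other than KRT8 went the other way. In SCR, CDH1 had 20.2 to 23.4 CPM with MPS1i and 7.08 to 10.7 with IFNb, against 27.9 with DMSO. As full sums in SCR, 3 of 6 tested epithelial markers were called higher and 0 lower with MPS1i (24.6% and 15.4% of all sums). With IFNb 2 were called higher and 2 lower (18% and 27.7% of all).

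Sums assigned to members of each role of the pathway were higher in J2-bound RNA after either treatment in SCR cells. After MPS1i most were higher in IFNAR1sg cells as well. The sums of PSMB9 and TAP1 came mainly from 1 row each, which lay before the RefSeq gene of PSMB9 or mostly outside the body of TAP1. The full sum of HLA-B had 107 of its 116 reads outside the RefSeq gene. Of the 10 members, 8 passed the filter on low counts as full sums and 6 as exon-free sums, while PSMB8 and PSME1 passed in neither. A sum was called when its edgeR quasi-likelihood p, adjusted over all sums tested, was under 0.05. With MPS1i, 7 of the 8 full sums were called higher in IFNAR1sg (27.3% of all 15469 full sums were) and 8 of 8 in SCR (24.6% of all). With IFNb, 2 of 8 were called higher in IFNAR1sg (1.32% of all), where the count was 1 without IFNAR1sg DMSO replicate 2 or IFNAR1sg IFNb replicate 1, and 7 of 8 in SCR (18% of all). Of the 6 exon-free sums, MPS1i raised 4 in IFNAR1sg (27.1% of all 14348; 2 without IFNAR1sg DMSO replicate 2) and 6 in SCR (22.2%), and IFNb raised 2 in IFNAR1sg (0.648%) and 5 in SCR (8.01%). The median change of the tested full sums with MPS1i was 1.58 on the log2 scale in IFNAR1sg and 2.38 in SCR, against medians over all sums of 0.21 and 0.19. With IFNb it was 0.89 in IFNAR1sg and 3.08 in SCR, against -0.02 and -0.21 over all sums. Since a member could pass the filter through the groups in which it was high, these counts and medians describe the tested members only. Of all full sums called with MPS1i, 64.6% were higher in IFNAR1sg and 61.5% in SCR, and with IFNb 72.6% and 39.5%; without TMM factors the shares were 52.1%, 46.3%, 59.7% and 22.9%. Leaving out these factors moved the median over all full sums by -0.13 in IFNAR1sg and -0.16 in SCR with MPS1i and by -0.04 and -0.32 with IFNb, less than the size of each called change named for a member here. The 2 treatments of a genotype share their DMSO libraries, and the difference between MPS1i and IFNb was not tested.

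**Figure D1:**
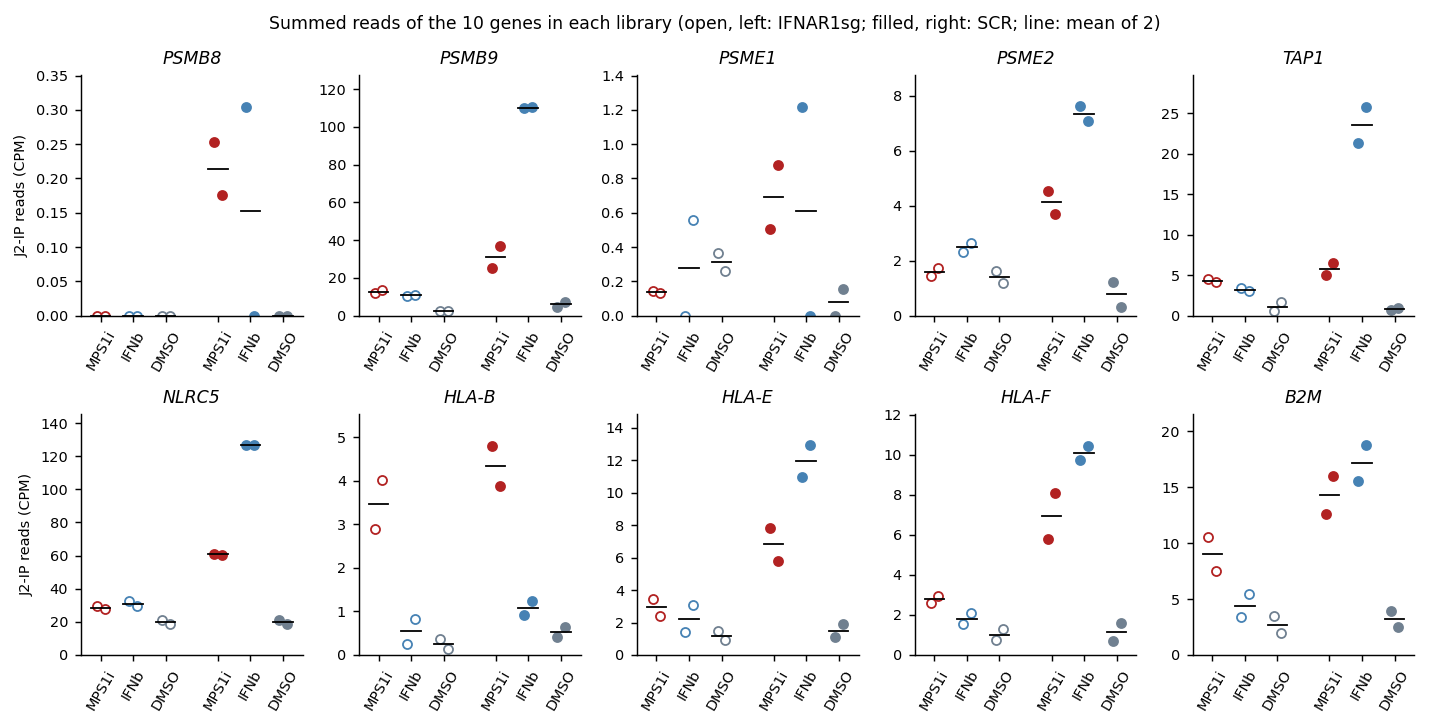
Summed J2-IP reads (CPM, full sums) of each of the 10 genes in each of the 12 libraries, with open points for IFNAR1sg on the left and filled points for SCR on the right, and a line at the mean of 2 libraries; each panel has its own scale. PSMB9 reached 109.9 and 110.8 CPM in SCR IFNb, while PSMB8 had 3 reads in all libraries together.

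**Figure D2:**
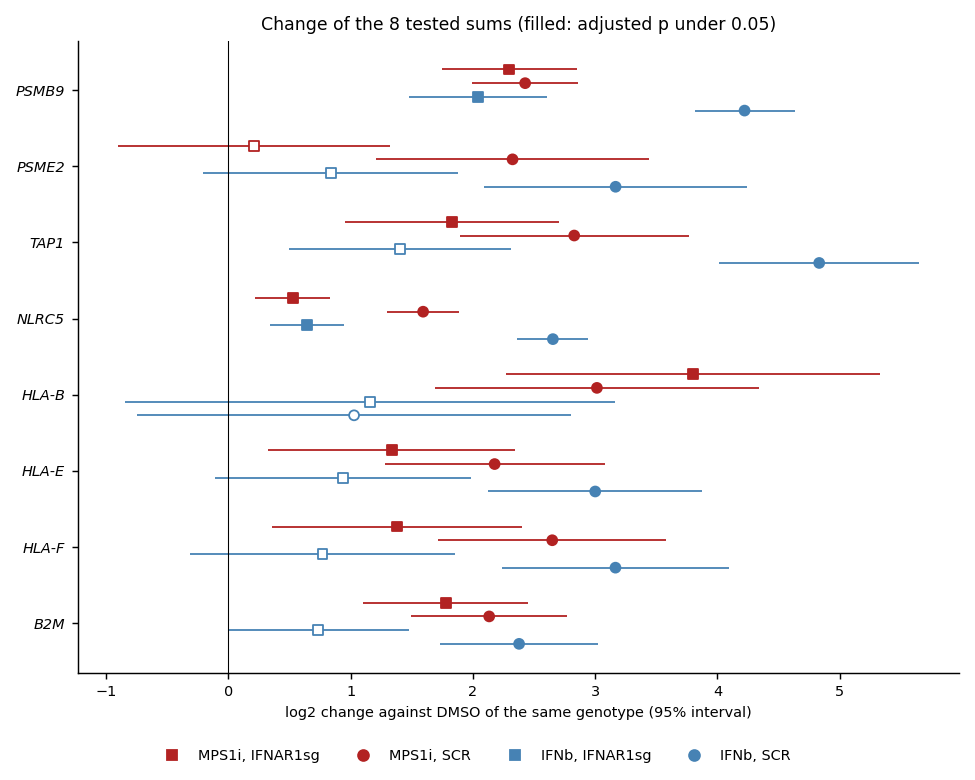
Log2 change against DMSO of the same genotype, with 95% intervals, of the 8 full sums that were tested, with squares for IFNAR1sg and circles for SCR, and filled symbols for adjusted p under 0.05. HLA-B is the member with a called change for MPS1i in both genotypes and for IFNb in neither. Its sum describes the long annotated body, with 107 of 116 reads outside the RefSeq gene.

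PSMB9, a catalytic subunit of the immunoproteasome (chr6:32844136-32859585, plus strand), had 83 and 101 reads in IFNAR1sg MPS1i, 81 and 79 in IFNAR1sg IFNb and 15 and 19 in IFNAR1sg DMSO. In SCR it had 101 and 211 reads with MPS1i, 361 and 360 with IFNb and 33 and 47 with DMSO. In each genotype all treated libraries lay above the DMSO libraries, and the SCR IFNb libraries were the highest of the 12. The log2 change with MPS1i was 2.30 ± 0.27 in IFNAR1sg and 2.43 ± 0.22 in SCR (adjusted p = 4.63e-09 and 1.66e-12), and with IFNb it was 2.04 ± 0.28 and 4.22 ± 0.20 (1.37e-06 and 2.94e-22). These reads came mainly from 1 row of 7085 bases (chr6:32847063-32854147, 1426 of 1491 reads), which lies before the RefSeq gene and opposite 4228 exon bases of TAP1, so reads of PSMB9 and reads antisense to TAP1 cannot be told apart there. The 6 rows inside the RefSeq gene held 65 reads: 4 and 8 in IFNAR1sg MPS1i, 2 and 5 in IFNAR1sg IFNb and 1 and 2 in IFNAR1sg DMSO. In SCR they held 4 and 10 with MPS1i, 16 and 11 with IFNb and 0 and 2 with DMSO, so that there too each treated SCR library lay above the DMSO libraries. One of them, a row with a MIR3 element at chr6:32855175-32855693, was called higher with IFNb in SCR (3.77 ± 1.31, adjusted p = 0.02).

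Rows past the end of PSMB9 on its strand also held reads, and whether these belong to PSMB9 transcripts was not tested. The 9 rows that start within 6 kb of its end, chosen after their values were seen, held 1377 reads and averaged 8.79 ± 0.85 CPM in IFNAR1sg MPS1i, 9.81 ± 1.30 in IFNAR1sg IFNb and 2.56 ± 0.49 in IFNAR1sg DMSO (SD, n = 2 each). In SCR they averaged 26.6 ± 1.81 CPM with MPS1i, 118 ± 4.37 with IFNb and 2.86 ± 0.01 with DMSO. Of the 6 of them that were tested, 3 were called higher with MPS1i in IFNAR1sg (9.41% of all 89111 rows were) and 6 in SCR (9.5%). With IFNb, 1 was called higher in IFNAR1sg (0.547%) and 6 in SCR (15%). Since these rows were chosen after their values were seen, the counts describe them only. PSMB8, the other immunoproteasome subunit here (chr6:32840717-32844703, minus strand), had 3 reads in all, 1 in each SCR MPS1i library and 1 in an SCR IFNb library, and was not tested; the count table held 333 of its 3987 body bases and 0 of its 2997 exon bases on its strand.

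PSME2, a subunit of the PA28 activator (chr14:24143362-24147570, minus strand), had 10 and 13 reads in IFNAR1sg MPS1i, 18 and 19 in IFNAR1sg IFNb and 9 and 9 in IFNAR1sg DMSO. The SCR libraries had 18 and 21 reads with MPS1i, 25 and 23 with IFNb and 9 and 2 with DMSO. It rose in SCR with MPS1i (2.32 ± 0.55, adjusted p = 0.00076) and with IFNb (3.17 ± 0.54, adjusted p = 2.86e-06). In IFNAR1sg the change was 0.21 ± 0.55 with MPS1i (95% interval -0.90 to 1.32) and 0.84 ± 0.52 with IFNb (-0.20 to 1.88), and neither passed the test. Most of its reads lay in 1 row of 100 bases with no exon base (chr14:24144260-24144359, 141 reads). PSME1, the partner subunit (chr14:24136158-24138967, plus strand), had 22 reads in all, 0 to 5 in a library, and was not tested.

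TAP1, the peptide transporter subunit with overlapping ISRE cores in its window (chr6:32845209-32853978, minus strand), had 31 and 31 reads in IFNAR1sg MPS1i, 26 and 22 in IFNAR1sg IFNb and 3 and 13 in IFNAR1sg DMSO. In SCR it had 20 and 37 reads with MPS1i, 70 and 84 with IFNb and 5 and 6 with DMSO, with each treated library above each DMSO library of its genotype. TAP1 rose with MPS1i in IFNAR1sg (1.83 ± 0.43, adjusted p = 0.00068) and in SCR (2.83 ± 0.47, adjusted p = 3.76e-06). With IFNb it rose in SCR (4.83 ± 0.41, adjusted p = 9.75e-14), the largest change of a tested full sum among the members, while the change in IFNAR1sg was 1.41 ± 0.45 (adjusted p = 0.105). Here too 1 row held most reads (chr6:32853840-32865486, 315 of 348). It shares 139 of its 11647 bases with an exon of TAP1 and runs opposite 2898 exon bases of PSMB9. The rest of it lies outside the annotated body of TAP1. Reads of TAP1 and reads antisense to PSMB9 cannot be told apart there, so the full sum describes mostly this stretch. The exon-free sum of TAP1 had 33 reads and was not tested: 9 and 4 in IFNAR1sg MPS1i, 2 and 0 in IFNAR1sg IFNb and 0 in both IFNAR1sg DMSO libraries, and in SCR 3 and 2 with MPS1i, 5 and 8 with IFNb and 0 in both DMSO libraries.

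NLRC5, the transactivator of class I genes (chr16:56989485-57083531, plus strand), had the most reads of the 10 members (2822) and was the only one of them whose response to MPS1i was called different between the genotypes. It had 29.5 and 27.8 CPM in IFNAR1sg MPS1i, 32.6 and 29.5 in IFNAR1sg IFNb and 21.1 and 18.8 in IFNAR1sg DMSO. The SCR libraries had 61.2 and 60.3 CPM with MPS1i, 127 and 126 with IFNb and 21.3 and 18.9 with DMSO. The DMSO levels of the genotypes overlapped and the treated levels did not. With MPS1i the log2 change was 0.53 ± 0.15 in IFNAR1sg (adjusted p = 0.0046) and 1.59 ± 0.15 in SCR (4.51e-12), and with IFNb it was 0.64 ± 0.15 (0.0086) and 2.65 ± 0.14 (2.94e-20). The exon-free sums gave 0.49 ± 0.16 and 1.43 ± 0.16 with MPS1i and 0.58 ± 0.16 (adjusted p = 0.0438) and 2.37 ± 0.15 with IFNb. Of these the MPS1i call in IFNAR1sg was lost without IFNAR1sg DMSO replicate 2 (0.46, adjusted p = 0.08), and the IFNb call in IFNAR1sg was lost without any one of the IFNAR1sg IFNb, IFNAR1sg DMSO, SCR MPS1i or SCR IFNb libraries (8 in all, adjusted p = 0.0531 to 0.458).

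Of the 10 kb bins of NLRC5, the first had the highest mean level in each group, and bins further along rose as well. The rows of a bin covered unlike lengths, from 794 bases in the last bin to 6910 in the first. Levels were not scaled for this, so they are compared between groups within a bin. In the first 10 kb its rows averaged 10.6 ± 3.8 CPM in IFNAR1sg MPS1i, 8.81 ± 1.25 in IFNAR1sg IFNb and 5.58 ± 1.63 in IFNAR1sg DMSO (SD, n = 2 each). In SCR they averaged 25.0 ± 6.45 CPM with MPS1i, 66.0 ± 5.92 with IFNb and 5.83 ± 0.62 with DMSO. In SCR the bin from 30 to 40 kb came next, with 12.1 ± 0.11 CPM in SCR MPS1i, 22.8 ± 4.80 in SCR IFNb and 3.38 ± 0.15 in SCR DMSO. The bin from 70 to 80 kb had 4.80 ± 1.80, 10.7 ± 1.81 and 1.30 ± 0.28 in these groups. The bin from 80 to 90 kb had 0.91 ± 0.21, 5.05 ± 0.69 and 0.43 ± 0.16, while the bin from 20 to 30 kb had 1.93 ± 0.49, 1.99 ± 0.63 and 1.52 ± 0.36. Of the rows with the most reads, one with an MLT1C element (chr16:56991705-56991915, 1 exon base, 392 reads) had 26 and 18 reads in IFNAR1sg MPS1i, 30 and 24 in IFNAR1sg IFNb and 12 and 7 in IFNAR1sg DMSO. In SCR that row had 36 and 49 reads with MPS1i, 83 and 92 with IFNb and 9 and 6 with DMSO. Its change in SCR was 2.99 ± 0.42 with MPS1i and 4.58 ± 0.38 with IFNb, both called, and in IFNAR1sg 1.06 ± 0.44 and 1.29 ± 0.43, neither called. A row with a MIRc element at chr16:56991130-56991379 was likewise called higher in SCR with MPS1i (2.87 ± 0.61) and with IFNb (4.31 ± 0.57).

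**Figure D3:**
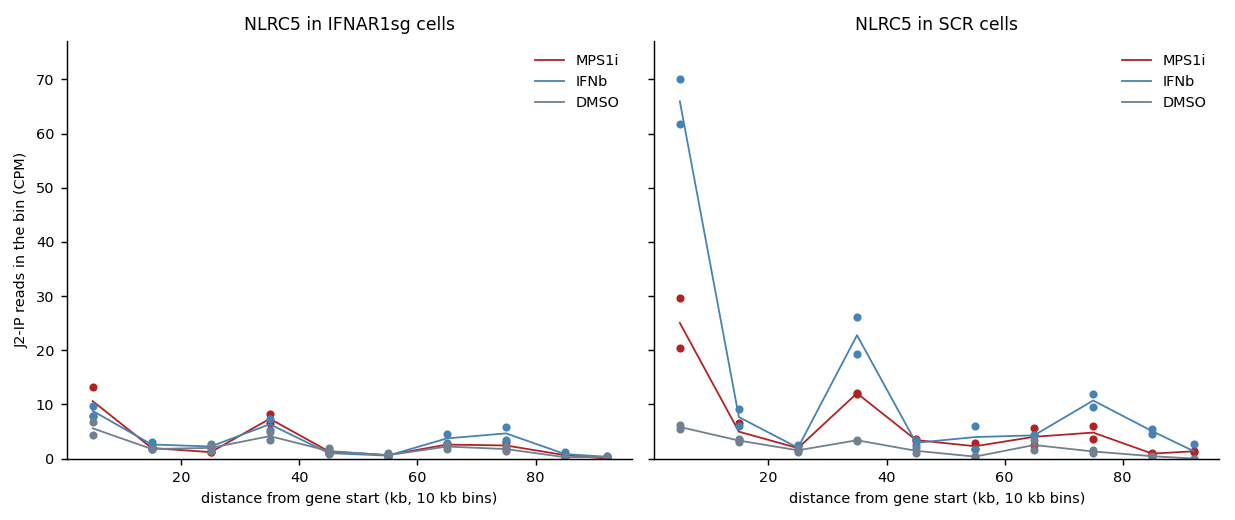
J2-IP reads (CPM) of NLRC5 in bins of 10 kb by distance from the gene start, in IFNAR1sg cells on the left and SCR cells on the right, with a point per library and lines through the means. The first bin stands highest in both genotypes, at 25.0 CPM in SCR MPS1i and 66.0 in SCR IFNb against 5.83 in SCR DMSO. Levels are not scaled for the bases covered by rows, which differ between bins and are most in the first.

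The non-classical heavy chain genes HLA-E and HLA-F rose with both treatments in SCR. HLA-E, whose product presents leader peptides to natural killer cells (chr6:30489467-30494205, plus strand), had 24 and 18 reads in IFNAR1sg MPS1i, 11 and 22 in IFNAR1sg IFNb and 8 and 7 in IFNAR1sg DMSO. In SCR it had 31 and 33 reads with MPS1i, 36 and 42 with IFNb and 8 and 12 with DMSO. It rose with MPS1i by a log2 change of 1.34 ± 0.50 in IFNAR1sg (adjusted p = 0.0285) and 2.18 ± 0.45 in SCR (0.00012). With IFNb the change was 0.94 ± 0.52 in IFNAR1sg (adjusted p = 0.499) and 3.0 ± 0.43 in SCR (1.33e-07). None of its reads lay in rows sharing an exon base. In that form the MPS1i call in IFNAR1sg was lost without IFNAR1sg DMSO replicate 2 (0.99, adjusted p = 0.212) and without IFNAR1sg MPS1i replicate 1 (1.06, adjusted p = 0.151).

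HLA-F (chr6:29722775-29738528, plus strand) had 18 and 22 reads in IFNAR1sg MPS1i, 12 and 15 in IFNAR1sg IFNb and 4 and 10 in IFNAR1sg DMSO. The SCR libraries had 23 and 46 reads with MPS1i, 32 and 34 with IFNb and 5 and 10 with DMSO. With MPS1i the change of the full sum was 1.38 ± 0.51 in IFNAR1sg (adjusted p = 0.025) and 2.65 ± 0.46 in SCR (1.09e-05), and with IFNb it was 0.77 ± 0.54 (0.636) and 3.17 ± 0.46 (1.55e-07). The exon-free sum with MPS1i in IFNAR1sg changed by 0.46 ± 0.65 and was not called, so that the call there rested on rows sharing an exon base. These 4 rows together cover only 4 of the 4342 exon bases of HLA-F. The 2 tested rows of HLA-F had unlike profiles. A row with L1 and L2 elements (chr6:29729630-29732131, no exon base) had 3 and 3 reads in IFNAR1sg MPS1i, 2 and 7 in IFNAR1sg IFNb and 2 and 3 in IFNAR1sg DMSO, and in SCR 11 and 21 with MPS1i, 5 and 10 with IFNb and 3 and 0 with DMSO. A row without a repeat (chr6:29727452-29727957, 1 exon base) had 4 and 6, 2 and 3, and 0 and 2 reads in the same IFNAR1sg groups, and in SCR 3 and 6 with MPS1i, 21 and 20 with IFNb and 0 and 2 with DMSO. The row with L1 and L2 was called higher in SCR with MPS1i (3.79 ± 0.93) and IFNb (3.28 ± 1.0), and the row without a repeat with IFNb (5.22 ± 0.95) and not with MPS1i (2.49 ± 1.15, adjusted p = 0.12).

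HLA-B, a classical heavy chain gene, was annotated over 87698 bases (chr6:31269491-31357188, minus strand), far beyond the RefSeq gene at its 5′ end (chr6:31353875-31357179). Of the 116 reads of the full sum, 107 lay outside the RefSeq gene, so the sum describes the long annotated body and not HLA-B as usually drawn. It had 20 and 30 reads in IFNAR1sg MPS1i, 2 and 6 in IFNAR1sg IFNb and 2 and 1 in IFNAR1sg DMSO. In SCR it had 19 and 22 reads with MPS1i, 3 and 4 with IFNb and 3 and 4 with DMSO, so the MPS1i libraries of both genotypes stood above the other 8. The change with MPS1i was 3.8 ± 0.76 in IFNAR1sg (adjusted p = 8.09e-05) and 3.01 ± 0.66 in SCR (0.00027), and with IFNb 1.16 ± 1.0 and 1.03 ± 0.88, neither called. A row shared with HLA-C (chr6:31270556-31271073, 1 exon base, 819 reads), left out of the sums because it lies in both genes, had 72 and 50 reads in IFNAR1sg MPS1i, 63 and 74 in IFNAR1sg IFNb and 14 and 18 in IFNAR1sg DMSO. The SCR libraries had 77 and 71 reads with MPS1i, 191 and 154 with IFNb and 15 and 20 with DMSO. That row was called higher in all 4 comparisons, by 1.80 ± 0.33 and 1.91 ± 0.33 in IFNAR1sg and by 2.60 ± 0.32 and 4.35 ± 0.30 in SCR with MPS1i and IFNb. HLA genes are close paralogs, and the sources used here do not give how the authors counted reads that map to several of them.

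B2M, the light chain of class I molecules (chr15:44711487-44718877, plus strand), had 73 and 56 reads in IFNAR1sg MPS1i, 26 and 39 in IFNAR1sg IFNb and 19 and 15 in IFNAR1sg DMSO. In SCR it had 50 and 91 reads with MPS1i, 51 and 61 with IFNb and 29 and 16 with DMSO. It rose with MPS1i in both genotypes (1.78 ± 0.34 in IFNAR1sg, adjusted p = 3.7e-05, and 2.13 ± 0.32 in SCR, 5.22e-07). With IFNb it rose in SCR (2.38 ± 0.32, adjusted p = 3.18e-08), and the change in IFNAR1sg was 0.74 ± 0.37 (0.422). Rows sharing an exon base held 96.2% of its reads. A row with an AluJr element (chr15:44712023-44713003, 227 of 981 bases exonic) had 38 and 19 reads in IFNAR1sg MPS1i, 2 and 10 in IFNAR1sg IFNb and 7 and 9 in IFNAR1sg DMSO, and in SCR 16 and 44 with MPS1i, 5 and 8 with IFNb and 10 and 5 with DMSO. A row at the 3′ end (chr15:44718145-44718744, all exonic) had 19 and 15, 10 and 14, and 9 and 3 reads in the same IFNAR1sg groups, and in SCR 15 and 24 with MPS1i, 39 and 39 with IFNb and 9 and 8 with DMSO. The AluJr row was thus highest in MPS1i libraries of both genotypes, and the row at the 3′ end in SCR IFNb. In SCR the AluJr row changed by 2.44 ± 0.53 with MPS1i (adjusted p = 0.00041) and by 0.85 ± 0.67 with IFNb (0.32), and the row at the 3′ end by 1.68 ± 0.50 (0.013) and 3.24 ± 0.46 (2.9e-08).

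**Figure D4:**
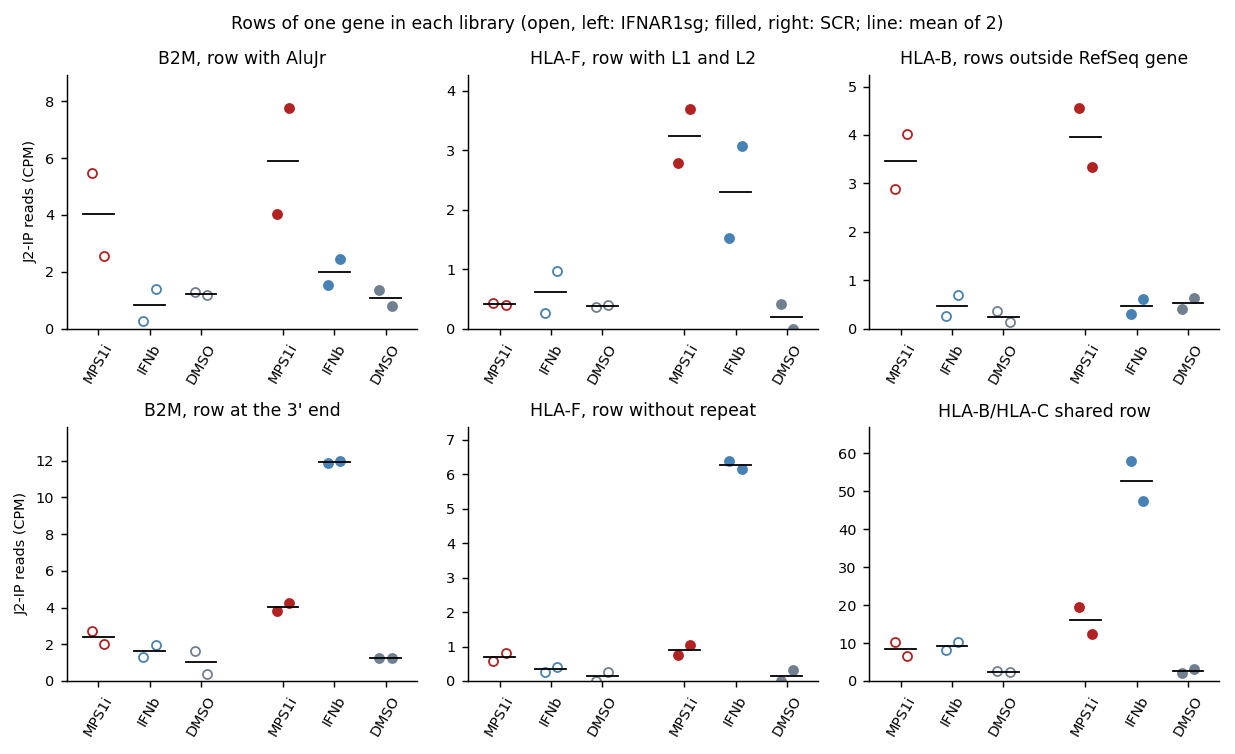
J2-IP reads (CPM) in each library for 2 rows of B2M, 2 rows of HLA-F, the HLA-B rows outside the RefSeq gene and the row shared by HLA-B and HLA-C, with open points for IFNAR1sg on the left, filled points for SCR on the right and lines at the mean of 2. The upper and lower panels of each column show rows of 1 gene with unlike profiles, such as the HLA-B rows at 3.95 CPM in SCR MPS1i and 0.46 in SCR IFNb, over the shared row at 16.0 and 52.8.

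The response to IFNb was smaller in IFNAR1sg than in SCR cells for most members, and the response to MPS1i for NLRC5. The test was the interaction, the change in IFNAR1sg minus the change in SCR. For IFNb it was called lower for 7 of the 8 full sums (10.5% of all were called lower) and for 4 of the 6 exon-free sums (4.31%): TAP1 had -3.43 ± 0.69, HLA-F -2.40 ± 0.75, PSME2 -2.33 ± 0.77, PSMB9 -2.18 ± 0.39, HLA-E -2.06 ± 0.71, NLRC5 -2.01 ± 0.21 and B2M -1.64 ± 0.50. HLA-B had 0.13 ± 1.08. The value of TAP1 rests mainly on the row that lies mostly outside the gene. Without IFNAR1sg DMSO replicate 1, 4 full sums and 2 exon-free sums were called. The exon-free calls of PSME2 and HLA-E were each lost without any one of 3 libraries: for PSME2 without SCR DMSO replicate 2 (-1.73), SCR IFNb replicate 1 (-2.18) or IFNAR1sg DMSO replicate 1 (-2.08), and for HLA-E without SCR DMSO replicate 1 (-1.70), IFNAR1sg DMSO replicate 1 (-1.74) or IFNAR1sg IFNb replicate 1 (-1.60). For MPS1i the interaction was called for NLRC5 alone, in both sums (-1.07 ± 0.21, adjusted p = 0.0019, as a full sum). Over all sums, 0.789% of full and 0.335% of exon-free sums were called lower. The exon-free call (-0.94 ± 0.23, adjusted p = 0.009) was lost without SCR DMSO replicate 2 (-0.85, adjusted p = 0.0556) or SCR MPS1i replicate 2 (-0.95, adjusted p = 0.0539). The other members' intervals for MPS1i were wide, as full sums from -0.92 to 0.66 for PSMB9, -1.45 to 3.02 for HLA-B and -3.72 to -0.50 for PSME2, the last with an adjusted p of 0.232. As exon-free sums PSME2 had -2.70 (-4.42 to -0.98, adjusted p = 0.112) and HLA-F -2.52 (-4.31 to -0.73, adjusted p = 0.199). The exon-free intervals of PSMB9, HLA-E and HLA-B spanned 0. A smaller response to MPS1i in members other than NLRC5 was thus not called and not excluded.

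In DMSO, IFNAR1sg minus SCR was called by edgeR for 0 full sums (0.0905% of all were called in either direction) and 0 exon-free sums (0.0767%), with 1 member at an unadjusted p under 0.05 in each and 0 calls by DESeq2. That member was PSMB9, with 2.73 and 2.48 CPM in IFNAR1sg DMSO, against 4.50 and 7.45 in SCR DMSO (-1.18 ± 0.31). With each sum 1 member was called without SCR DMSO replicate 1, and for the exon-free sum this was PSMB9 (-1.51, adjusted p = 0.0134).

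Of the 369 member rows 24 were tested one by one. With MPS1i, 5 of the 24 were called higher in IFNAR1sg (9.41% of all 89111 rows were) and 14 in SCR (9.5%). With IFNb, 2 were called higher in IFNAR1sg (0.547%) and 20 in SCR (15%), and none was called lower in these 4 comparisons. The 5 rows called with MPS1i in IFNAR1sg belonged to PSMB9, TAP1, HLA-B, HLA-E and B2M, and NLRC5 had 0 of its 11 tested rows among them. The interaction was called lower for 10 rows with IFNb (5.11% of all) and for 0 with MPS1i (0.0505% of all), where 6 had an unadjusted p under 0.05 and DESeq2 called 0. Without SCR MPS1i replicate 2, the count for MPS1i in SCR was 9, and without IFNAR1sg DMSO replicate 2 the count for MPS1i in IFNAR1sg was 3. The count of 10 for the IFNb interaction was 5 without SCR IFNb replicate 1 and 6 without SCR IFNb replicate 2 or IFNAR1sg DMSO replicate 2.

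Reads on the strand opposite exons within the members' bodies rose as well. Rows opposite the members' bodies were examined after the table's structure was seen, and 18 of them were tested. Of these 14 lay opposite an exon base, 12 of them opposite at least 1000, and 4 lay opposite introns of HLA-F alone. Exon bases of any gene on the other strand were counted. The row at chr6:31268742-31272240, opposite the stretch that HLA-B shares with HLA-C, faced 2507. HLA-B has 3051 exon bases in all, of which the row opposite its RefSeq exons faced 2391, so most of the 2507 were not its own. Among the 12 rows opposite at least 1000 exon bases, those opposite PSMB9 and TAP1 are the rows already counted above for TAP1 and PSMB9. Of the 12, 9 were called higher with MPS1i in IFNAR1sg and 11 in SCR, and 5 with IFNb in IFNAR1sg and 12 in SCR. Over all 13043 rows that lie opposite as many exon bases, 24.5%, 15.5%, 1.89% and 37.3% were called in these comparisons. The row opposite B2M (chr15:44711415-44718702, minus strand, 6468 reads) had 417 and 509 reads in IFNAR1sg MPS1i, 442 and 294 in IFNAR1sg IFNb and 136 and 204 in IFNAR1sg DMSO. The SCR libraries had 475 and 662 reads with MPS1i, 1422 and 1389 with IFNb and 225 and 293 with DMSO. Its change was 1.32 ± 0.17 and 0.93 ± 0.17 in IFNAR1sg and 1.62 ± 0.17 and 3.48 ± 0.17 in SCR with MPS1i and IFNb, all called. The row opposite the RefSeq exons of HLA-B (chr6:31353820-31356470) rose with IFNb by 3.66 ± 0.77 in IFNAR1sg and 6.01 ± 0.53 in SCR, unlike the sum over the long body. These changes start from few reads: 0 and 2 in IFNAR1sg DMSO against 14 and 18 with IFNb, and 2 and 2 in SCR DMSO against 54 and 78. The row opposite PSMB8, a gene whose promoter window held the ISRE core, (chr6:32840716-32844047, 351 reads) rose with MPS1i by 1.26 ± 0.47 in IFNAR1sg and 1.56 ± 0.39 in SCR and with IFNb by 3.43 ± 0.36 in SCR. Of the 4 rows opposite introns of HLA-F, 3 were called in none of these comparisons, and 1 (chr6:29737241-29737756) was called higher with IFNb in SCR (1.09 ± 0.44, adjusted p = 0.0453). Most exons of the members are not among the rows of their own strand, and the sources used here do not give the strand setting of the authors' counting, so transcripts antisense to an exon and reads of the exon itself cannot be told apart. In intron rows with genes on 1 strand only, 93.9% of reads lay on the gene's strand and 6.09% on the other. The rows covered unlike lengths, 426129 kb and 128189 kb, and per kb there were 47.1 reads on the gene's strand and 10.2 on the other.

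**Figure D5:**
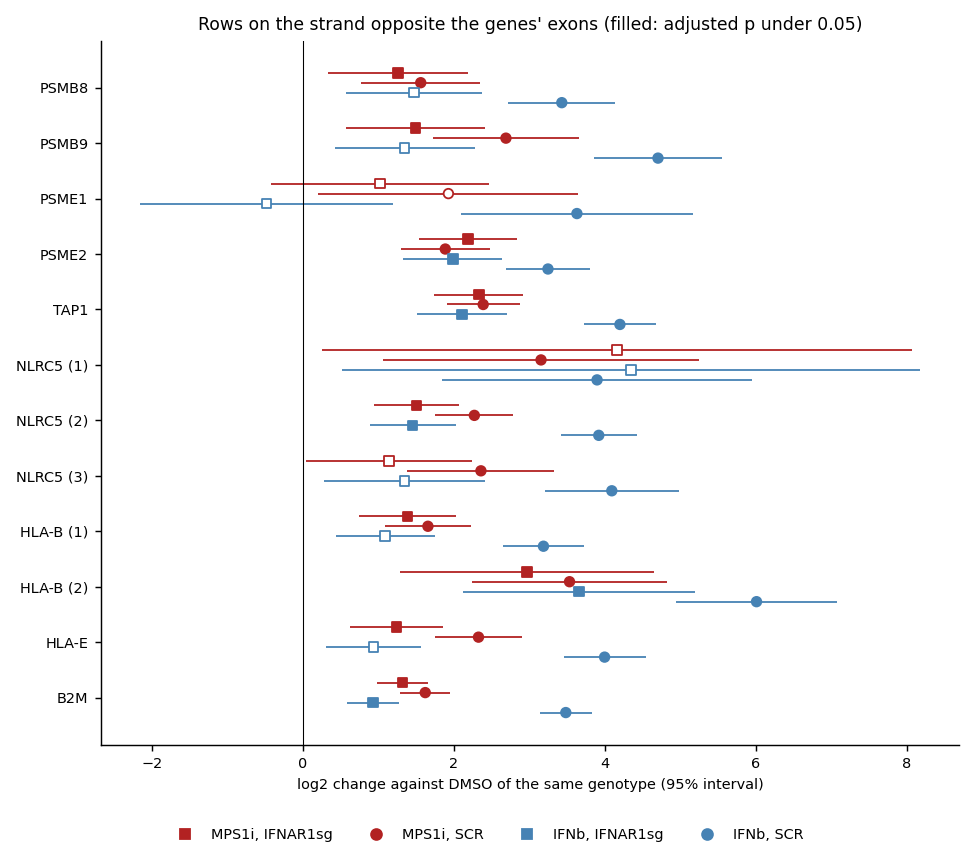
Log2 change against DMSO of the same genotype, with 95% intervals, for 12 tested rows opposite the members' bodies. Each lies opposite at least 1000 exon bases, counted over all genes of the other strand. Squares stand for IFNAR1sg, circles for SCR and filled symbols for adjusted p under 0.05. All 12 are called higher with IFNb in SCR, and those opposite PSMB9 and TAP1 are the rows counted for TAP1 and PSMB9.

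Other genes of the pathway, in lists chosen with earlier results of these data known, moved less uniformly. Their counts are read beside the shares of all full sums called lower, which were 15% with MPS1i and 0.498% with IFNb in IFNAR1sg and 15.4% and 27.7% in SCR, and beside the shares called higher given for the members. Among exon-free sums the shares called lower were 19.7% and 0.655% in IFNAR1sg and 22% and 39.3% in SCR. Of 15 further genes of class I presentation, 9 were tested as full sums. With MPS1i, 5 rose and 2 fell in IFNAR1sg, and 4 rose and 1 fell in SCR. With IFNb, 0 rose and 1 fell in IFNAR1sg, and 3 rose and 2 fell in SCR. As exon-free sums, 2 rose and 2 fell with MPS1i in IFNAR1sg and 3 rose and 2 fell in SCR, and with IFNb 0 moved in IFNAR1sg and 1 rose and 3 fell in SCR, so the balance with IFNb in SCR depended on the rows used. The genes named next are given as full sums, and ERAP1, ERAP2 and PSME3 had no call for either treatment as exon-free sums. ERAP2, a peptide-trimming enzyme of the endoplasmic reticulum, rose with MPS1i by 0.78 ± 0.28 in IFNAR1sg and 1.17 ± 0.26 in SCR, and with IFNb by 3.02 ± 0.24 in SCR. ERAP1, its relative, rose with IFNb in SCR (1.11 ± 0.19), and MICB, a ligand of natural killer cells, with MPS1i in IFNAR1sg (2.44 ± 0.74) and SCR (2.78 ± 0.75). PDIA3, a chaperone of the peptide-loading complex, fell with MPS1i by 0.79 ± 0.21 in IFNAR1sg and by 1.01 ± 0.23 in SCR. Of 13 class II genes 2 were tested: HLA-DMA, a peptide exchanger, rose with MPS1i in IFNAR1sg (1.71 ± 0.26) and SCR (2.02 ± 0.28), and CTSS, a protease, rose with MPS1i in both (1.75 ± 0.65 and 1.81 ± 0.70) and with IFNb in SCR (2.40 ± 0.69).

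Subunits of the constitutive proteasome, of which 26 of 31 were tested, went both ways. As full sums 1 rose and 9 fell with MPS1i in IFNAR1sg, and 6 rose and 4 fell in SCR; with IFNb, 0 moved in IFNAR1sg, and 9 rose and 6 fell in SCR. As exon-free sums the counts with MPS1i were 0 up and 15 down in IFNAR1sg and 3 up and 13 down in SCR, and with IFNb 0 moved in IFNAR1sg and 2 rose and 15 fell in SCR, so the balance depended on the rows used. The list counts were made with TMM factors only. PSMB5, a catalytic subunit that PSMB8 replaces, fell with MPS1i by 0.64 ± 0.14 in IFNAR1sg and by 0.63 ± 0.15 in SCR, and with IFNb by 1.46 ± 0.17 in SCR. Of 6 other regulators 5 were tested as full sums, of which 0 rose and 1 fell with MPS1i in IFNAR1sg, 2 rose and 1 fell with MPS1i in SCR, and 2 rose and 2 fell with IFNb in SCR. Of the 4 tested as exon-free sums, 0 rose, and 1, 2 and 3 fell in these comparisons. PSME4, another activator, fell with MPS1i in both genotypes (by 0.50 ± 0.14 in IFNAR1sg and by 0.65 ± 0.15 in SCR), and PSME3 rose in SCR with MPS1i (0.51 ± 0.12) and IFNb (1.04 ± 0.12). Among 13 tested transcription factors of the pathway, of 16 listed, 6 rose and 1 fell with MPS1i in IFNAR1sg, and 5 rose and 1 fell in SCR. With IFNb, 3 rose and 0 fell in IFNAR1sg, and 3 rose and 5 fell in SCR. Of 12 tested as exon-free sums, 5 rose and 2 fell with MPS1i in IFNAR1sg and 4 rose and 1 fell in SCR, and with IFNb 1 rose in IFNAR1sg and 3 rose and 6 fell in SCR. IRF7, an interferon regulatory factor, rose with MPS1i by 2.72 ± 0.33 in IFNAR1sg and 3.52 ± 0.29 in SCR, and with IFNb by 3.02 ± 0.32 in IFNAR1sg and 4.67 ± 0.27 in SCR.

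The exon-free sums most like each member over the 12 libraries were named by Pearson's r of log2(CPM + 0.5) among 14347 others, as a description, since all share the libraries and the strong group differences. RNF213-AS1 and TRIM5 were nearest to PSMB9 (r = 0.98 each), PLEKHA4 was among the nearest to NLRC5 (0.99), and BTN3A3 and DHX58 were nearest to HLA-E (0.97 and 0.96). SPATS2L and PNPT1 were nearest to PSME2 (0.94 and 0.92) and SP100 and SLFN11 to HLA-F (0.92 and 0.90). The long body of HLA-B was instead nearest to COL4A6 and to a gene with the identifier ENSG00000270087 (0.98 each).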

How the data were processed

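J2-IP RNA of 12 libraries (6 groups of 2) was analysed. The authors deposited unscaled read counts for 5254113 stranded regions of hg38. Per the submitters' processing notes, STAR, HOMER, featureCounts, Trimmomatic, Trim Galore and cutadapt were used; versions and roles are not stated there. Settings for strand, overlaps and multiple mapping are not given in the sources used here.

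Rows were placed in genes with bedtools 2.31.1 and summed per gene. All 89111 rows, 15469 full sums and 14348 exon-free sums that passed filterByExpr (minimum count 10, minimum total 15) were fitted with edgeR 4.0.16 (R 4.3.3; glmQLFit, glmQLFTest), with TMM factors of the row fit and 1 coefficient per group over 12 libraries. A call is a Benjamini-Hochberg adjusted p under 0.05 over all features of a table. Errors of changes are standard errors, and p-values measure only the spread between these libraries, which may be technical. Alternatives were DESeq2 1.42.0, other scaling and filters, a replicate block and leaving out libraries.

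All 10 members are named; of their rows, the one with the highest mean CPM and the 2 with the smallest p for MPS1i in SCR, plus rows said to be chosen later. In lists, up to 3 called genes per direction with the smallest p could be named. The members and lists were chosen with earlier results of these data known.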

Additional observations from a re-analysis of the deposited data

Results flagged for a closer look

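Changes that differed between the genotypes, by the interaction test (change in IFNAR1sg minus change in SCR, edgeR, adjusted p under 0.05), are listed here with their log2 values. For MPS1i, NLRC5 had -1.07 as a full sum and -0.94 as an exon-free sum. For IFNb the full sums gave -3.43 for TAP1, -2.40 for HLA-F, -2.33 for PSME2, -2.18 for PSMB9, -2.06 for HLA-E, -2.01 for NLRC5 and -1.64 for B2M. The exon-free sums gave -2.31 for PSME2, -2.18 for PSMB9, -2.06 for HLA-E and -1.80 for NLRC5. TAP1 was not tested as an exon-free sum, and its full sum came mainly from a row that lies mostly outside the gene. The SCR IFNb libraries, which stood apart in rows with reads and in exon-sharing reads, enter each IFNb value, and their part in it was not tested.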

How the results depend on the processing

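Counts of members called higher (in either direction for IFNAR1sg minus SCR in DMSO, lower for interactions) were recomputed with other scaling, tests, filters and libraries. Leaving out 1 library at a time gave these ranges. For exon-free sums they were 2 to 4 for MPS1i in IFNAR1sg, 1 to 2 for IFNb in IFNAR1sg, 0 to 1 for IFNAR1sg minus SCR, 0 to 1 for the MPS1i interaction and 2 to 4 for the IFNb interaction. For full sums they were 1 to 2 for IFNb in IFNAR1sg, 0 to 1 for IFNAR1sg minus SCR and 4 to 7 for the IFNb interaction. For single rows they were 9 to 15 for MPS1i in SCR, 3 to 5 for MPS1i in IFNAR1sg, 0 to 1 for IFNAR1sg minus SCR and 5 to 10 for the IFNb interaction. The 2 exon-free sums called with IFNb in IFNAR1sg became 1 with no TMM factors, DESeq2 size factors, the DESeq2 Wald test, no filter or without both SCR IFNb libraries, and the call lost was that of NLRC5 (adjusted p = 0.0551 to 0.0778). The 5 rows called with MPS1i in IFNAR1sg became 3 by DESeq2. With the replicate number as a block, 1 row was called in IFNAR1sg minus SCR, against 0 without the replicate block, and no other of the 21 counts changed; same-numbered libraries did not deviate together (correlations -0.051 to 0.057), so the numbers were not taken to pair them. Of 870 recomputed changes of exon-free sums, 829 kept direction and side of the threshold, 27 fell short of it, 3 newly passed it and 11 changed sign. None of the 11 was called. As ranges over single libraries left out they belonged to HLA-B with IFNb in SCR (-0.72 to 0.25, with 0.16 among them, and 1.03 as a full sum), PSME2 with MPS1i in IFNAR1sg (-1.02 to 0.028, and 0.21 as a full sum), IFNAR1sg minus SCR for NLRC5 (-0.17 to 0.035), HLA-E (-0.71 to 0.065) and HLA-F (-0.015 to 0.50, and -0.069 as a full sum), and the MPS1i interaction of PSMB9 (-0.52 to 0.19). HLA-E with MPS1i in IFNAR1sg missed the threshold by DESeq2 (adjusted p = 0.0516) and when only the 2 groups compared were fitted (0.0507), as did NLRC5 in that comparison without TMM factors (0.063). As full sums, HLA-F passed with MPS1i in IFNAR1sg (1.38) and in the IFNb interaction (-2.40). The strand check, bins, opposite rows, rows by RefSeq gene, rows past PSMB9 and the scaling shift were added after seeing the data. PSMB8 and PSME1, with 3 and 22 reads, were not tested; 333 of 3987 and 427 of 2810 body bases of these genes lay in rows of their strand.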

Other observations

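Further proteasome genes of the lists moved in full sums. PSMD13, a subunit of the regulatory lid, rose with MPS1i in IFNAR1sg (1.18 ± 0.22 on the log2 scale, adjusted p = 3.11e-05) and in SCR (1.75 ± 0.24, adjusted p = 1.06e-07, edgeR). PSMA3 and PSMA7, subunits of the alpha rings, rose with MPS1i in SCR (0.82 ± 0.13 and 0.80 ± 0.14) and with IFNb in SCR (1.71 ± 0.13 and 1.48 ± 0.14). Their MPS1i interaction was called lower (-1.15 ± 0.18 and -1.09 ± 0.20). Among the 26 constitutive subunits tested as exon-free sums, 0 were called in the MPS1i interaction and 0 were called higher with MPS1i in IFNAR1sg. POMP, a chaperone of proteasome assembly, rose in SCR as a full sum with MPS1i (0.73 ± 0.13) and IFNb (1.63 ± 0.13), while its exon-free sum fell by 1.36 ± 0.32 and by 1.0 ± 0.33 on the log2 scale. TAPBPL, a peptide editor of class I molecules, rose with MPS1i in IFNAR1sg (1.01 ± 0.30) and SCR (1.21 ± 0.32) and with IFNb in SCR (1.48 ± 0.32). STAT2, a transcription factor of the interferon response, rose with MPS1i in IFNAR1sg (1.89 ± 0.22) and SCR (2.81 ± 0.20), and with IFNb in IFNAR1sg (1.35 ± 0.23) and SCR (4.0 ± 0.19).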
